A study of Mus musculus with 4 samples.

Results

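Antigen presentation depends on a small set of genes, most of them in the major histocompatibility complex (MHC), which in the mouse is called H2. The protein-coding genes of this set were taken from the deposited expression table as every symbol that starts with H2- together with B2m, Tap1, Tap2, Tapbp, Psmb8, Psmb9, Psmb10, Nlrc5, Ciita and Cd74, which gave 44 genes of 53465 in all. They comprised 24 class I heavy chains, 9 class II chains, 3 subunits of the immunoproteasome, 3 genes of peptide loading, the class I light chain B2m, the transactivators Nlrc5 and Ciita, the invariant chain Cd74, and H2-Ke6, which lies in the region but encodes no MHC chain. On chromosome 17 lay 39 of them, and 5 lay elsewhere.

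The values came from Long RNA-seq of mouse female germline stem cells (FGSCs), labelled as ovary-derived germ stem cells, in 4 libraries. The control group, shNC, and the knockdown group, shNAT10, held 2 libraries each. The shNAT10 cells had been infected with a lentivirus encoding an shRNA against Nat10, the enzyme that writes N4-acetylcytidine (ac4C) on RNA, and infected cells were selected with puromycin or blasticidin S according to the vector. For shNC the labels give only the name of the group. The supplement of the study describes infection with a control lentivirus, named shNC, and lists a negative control shRNA. The age of the animals and the time after infection are not given in the sources used here. The methods keep the mice of the study on a C57BL/6J background without tying the cultured cells to it. The study calls the libraries of a group biological replicates, and the labels do not say whether they came from separate cultures, so p-values measure the spread between these libraries.

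Class I molecules pair a heavy chain with beta-2 microglobulin (B2m) and show peptides from inside the cell to CD8 T cells. Those peptides are cut by the proteasome, for which interferon induces the alternative catalytic subunits Psmb8, Psmb9 and Psmb10, then pumped into the endoplasmic reticulum by the transporter Tap1-Tap2 and loaded with the help of tapasin (Tapbp). Class II molecules show peptides from endosomes to CD4 T cells, are chaperoned by the invariant chain Cd74, exchange peptides with the help of H2-DM, and are normally made by professional antigen-presenting cells. Nlrc5 is the master transactivator of class I genes and Ciita that of class II genes. Both act at a conserved promoter module of X and Y boxes, and class I promoters also carry an NF-kappaB site and an interferon response element upstream of it.

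Promoter modules are shown for the abundant H2-K1, H2-D1 and B2m, and for H2-Q6, H2-M3, Tap1 and Psmb9 among the called members. The sequences were taken from RefSeq promoters of build GRCm38, which is the sequence of mm10, covering 250 bases before to 50 bases after each start. Of the 44 genes 37 had an entry, and the called Tap2, H2-T24 and Nlrc5 had none. The called Psmb8, Psmb10 and H2-Oa had an entry and are not shown. H2-K1 and H2-D1, the classical heavy chains, H2-Q6, H2-M3 and B2m are printed from their upstream element to just past the Y box, 5′ to 3′ on the coding strand. Capitals mark the NF-kappaB motif GGGGATTCCC, the class I interferon response motif TTTCACTTC, the interferon-stimulated response element core GAAANNGAAA, the X2 box core TGACG and the Y box ATTGG, each searched on both strands, so that the Y box reads as CCAAT on the other strand.
H2-K1 at chr17:34000355-34000460, minus strand: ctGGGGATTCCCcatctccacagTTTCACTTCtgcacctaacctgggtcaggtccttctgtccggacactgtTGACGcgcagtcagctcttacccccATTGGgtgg
H2-D1 at chr17:35262921-35263026, plus strand: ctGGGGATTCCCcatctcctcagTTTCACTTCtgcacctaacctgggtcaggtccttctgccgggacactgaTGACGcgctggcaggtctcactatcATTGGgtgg
H2-Q6 at chr17:35424675-35424779, plus strand: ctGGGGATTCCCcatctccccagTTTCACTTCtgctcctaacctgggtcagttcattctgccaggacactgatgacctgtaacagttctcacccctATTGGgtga
H2-M3 at chr17:37270106-37270221, plus strand: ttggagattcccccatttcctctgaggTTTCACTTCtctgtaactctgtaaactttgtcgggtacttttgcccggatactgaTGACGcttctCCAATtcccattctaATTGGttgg
B2m at chr2:122147543-122147642, plus strand: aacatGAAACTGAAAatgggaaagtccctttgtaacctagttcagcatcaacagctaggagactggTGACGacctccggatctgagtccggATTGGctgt

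The windows of H2-K1 and H2-D1 were identical at 95 of 106 positions. H2-Q6 carried the NF-kappaB, interferon response and Y box letters, but TGACG was not found in its window. In H2-M3 the interferon response motif, TGACG and the Y box were found and GGGGATTCCC was not. Over all 32544 distinct promoters of the RefSeq set, GGGGATTCCC was present in 0.108%, and it was present in 4 members, H2-K1, H2-D1, H2-Q6 and H2-Q7. TTTCACTTC was present in 0.507% of all promoters and in 7 members, namely these 4 with H2-M3, H2-Q4 and H2-Q10. GAAANNGAAA was present in 3.45% of all promoters and in B2m, H2-T22 and H2-T23. TGACG and ATTGG are short and frequent, at 20.9% and 37.4% of all promoters, and were present in 15 and 32 members. Among the called members not shown, Psmb8 and Psmb10 had none of these motifs, and H2-Oa had ATTGG only. A match describes letters only, and the motifs were chosen with the sequences in view.

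Tap1 and Psmb9 are transcribed in opposite directions from a shared region, which is shown because both genes are members. It is given on the plus strand from the RefSeq start of Psmb9 to that of Tap1, while in GENCODE Psmb9 starts at 34187764, inside Tap1, which starts at 34187553. It is printed with the Y box on the opposite strand and TGACG in capitals.
Tap1 and Psmb9 at chr17:34187330-34187556: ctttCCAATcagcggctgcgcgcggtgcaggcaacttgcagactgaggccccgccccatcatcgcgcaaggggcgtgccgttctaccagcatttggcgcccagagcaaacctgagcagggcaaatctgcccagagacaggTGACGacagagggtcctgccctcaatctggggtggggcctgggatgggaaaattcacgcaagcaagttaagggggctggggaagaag

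The libraries held 11057921 to 14902434 fragments recovered from the deposited FPKM, a level scaled by exon length and library depth, of which 7454426 to 9420923 fell on protein-coding genes. rRNA-related loci made up 83.7% and 76.4% of the FPKM total in shNC and 70.6% and 72.1% in shNAT10, lower in both knockdown libraries. The part of this difference in the results was not tested beyond the rescaling without these loci. Under that rescaling the same 10 members were called, 9 higher and 1 lower, beside 9.34% and 6.37% of all genes. Nat10 itself measured 7.79 and 5.42 FPKM in shNC against 2.95 and 3.04 in shNAT10, so all knockdown libraries lay below the controls (log2 fold change -1.09, limma adjusted p = 0.123). Of 8 germline stem cell markers, 7 were below a mean of 0.1 FPKM, with Dazl, Dppa3, Tfap2c and Pou5f1 at 0 in every library, and the summed level of the list, 9.57 to 22.3 FPKM in shNC and 27.3 to 33.8 in shNAT10, was almost wholly Ifitm3. Ifitm3, also called Fragilis, is among the markers by which the study characterised these cells, together with Ddx4, Oct4 and Blimp1 in assays not analysed here. In these libraries Ddx4, Pou5f1 (Oct4) and Prdm1 (Blimp1) were at or near 0. Leukocyte markers were high. All 5 pan-leukocyte genes were measured, with a summed level of 442.9 to 492.6 FPKM in shNC and 363.2 to 383.7 in shNAT10. Cd53, Laptm5 and Lcp1 were called lower in shNAT10, while Ptprc and Coro1a were not called (log2 fold changes -0.01 and -0.04). Of the macrophage and dendritic cell list 5 of 8 genes were measured (51.9 to 55.1 FPKM in shNC, 41.9 to 46.1 in shNAT10), chiefly Adgre1, which was called lower, and Cd14 and Csf1r had log2 fold changes of 0.70 and 0.24 without a call, whereas Flt3, Itgax and Xcr1 stayed under the filter. Mast cell genes summed to 312.4 to 323.0 FPKM in shNC and 318.3 to 322.6 in shNAT10, chiefly Cpa3, with Tpsb2 and Fcer1a at 0, and among them Kit and Gata2 were called lower (log2 fold changes -0.60 and -0.33) and Ms4a2 higher (2.12). Of the 5 fibroblast genes Col3a1 and Pdgfra rose, Col1a1, Col1a2 and Dcn were not called, and the list, chiefly Dcn, summed to 44.8 to 51.7 FPKM in shNC and 51.4 to 60.7 in shNAT10. B cell, T and NK cell, granulosa cell and endothelial lists summed to under 0.5 FPKM in each library. In bulk RNA, fewer cells of a type and less RNA per cell cannot be told apart, and the part of these cell type genes in the results that follow was not tested.

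A mean of at least 0.1 FPKM over the 4 libraries was required for testing, and 28 of the 44 genes passed it. A gene was called when its fold change exceeded 1.2 at an unadjusted limma p of at most 0.05 on log2(FPKM + 0.1), the threshold of the study. In shNAT10, 9 members were called higher, and 8.41% of all 20116 genes tested were called higher. Only H2-M3 was called lower, and 7.83% of all genes were called lower. The median log2 fold change was 0.36 over the 28 members and 0.01 over all genes tested. The same count was taken among genes with a mean of at least 1 FPKM, where 9 of 21 members were called higher against 10.9% of genes and 1 was called lower against 11.1%. In 14 of the 28 members both shNAT10 libraries lay above both shNC libraries, against 23.9% of all genes, and in 3 both lay below, against 24.1%.

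The 9 higher members were the peptide transporter genes Tap1 and Tap2, the immunoproteasome genes Psmb8, Psmb9 and Psmb10, the class I transactivator Nlrc5, the heavy chains H2-T24 and H2-Q6, and the class II gene H2-Oa. The abundant parts of the class I molecule, H2-K1, H2-D1 and B2m, were not called. None of the 28 had a limma adjusted p under 0.05, the lowest being 0.0643, while 10 passed the unadjusted threshold. With limma-voom on the recovered fragments, 8 members had an adjusted p under 0.05, all higher, against 4.23% of all genes, and none was lower, against 3.65%. An exact permutation test of 2 against 2 libraries cannot give a p under 0.33.

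The calls rested on 4 libraries, and leaving out 1 of them changed several. In such a fit a group has 1 library, which is assumed to vary like the other group. The 9 higher calls became 8 without shNC replicate 1 and 9 without shNC replicate 2, of which 6 were the same genes. They became 5 without shNAT10 replicate 1, 4 of them the same genes, and 3 without shNAT10 replicate 2. The share of all genes called higher was 8.62% and 8.61% without shNC replicates 1 and 2, and 5.51% and 5.86% without shNAT10 replicates 1 and 2. H2-T24, H2-Q6 and Psmb8 were called in all 4 of these fits. Tap2, Psmb9 and H2-Oa lost the call without either shNAT10 library, Nlrc5 and Psmb10 kept it only without shNC replicate 1, and Tap1 kept it only without shNAT10 replicate 1. The log2 fold changes of the 9 genes remained above 0 in each of these fits, from 0.33 for Tap1 to 1.64 for H2-T24.

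**Figure D1:**
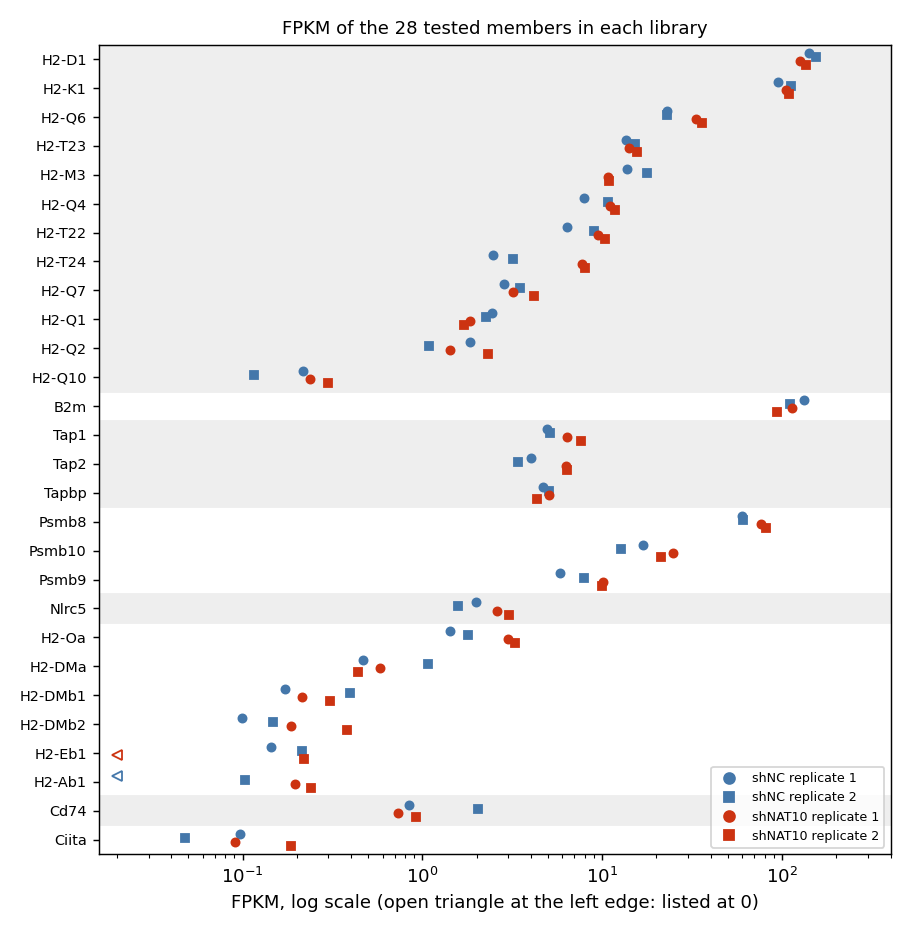
FPKM of the 28 tested members in each of the 4 libraries on a log axis, grouped by role in shaded bands (from the top, class I heavy chains, light chain, peptide loading, immunoproteasome, Nlrc5, class II chains, invariant chain, Ciita). Circles are replicate 1, squares replicate 2, blue shNC and red shNAT10, and H2-D1, H2-K1, B2m and Psmb8 exceed 50 FPKM in every library while 5 of the 6 class II chains stay near or below 1 FPKM.

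**Figure D2:**
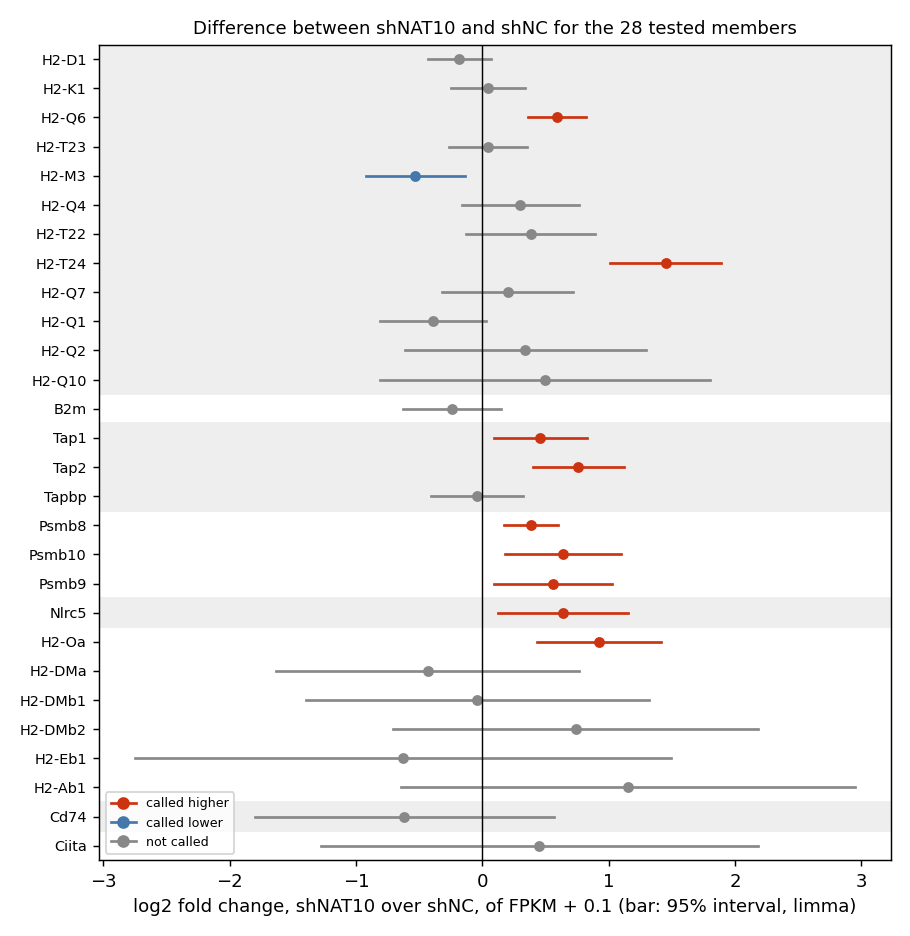
Log2 fold change of shNAT10 over shNC for each tested member, on FPKM + 0.1, with its 95% interval from limma. The 9 members called higher are red, H2-M3 is blue and the 18 members not called are grey, and the intervals are wide for H2-Q2, H2-Q10, Cd74, Ciita and the class II chains other than H2-Oa.

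The classical heavy chains carried most of the class I signal and did not separate the groups in the same direction. H2-D1 measured 140.9 and 154.2 FPKM in shNC and 125.2 and 135.0 in shNAT10, both knockdown libraries below both controls, with a log2 fold change of -0.18 (95% interval -0.43 to 0.07, limma adjusted p = 0.433). H2-K1 measured 95.3 and 112.1 FPKM in shNC and 104.4 and 109.0 in shNAT10, values that overlapped (log2 fold change 0.05, interval -0.24 to 0.34). B2m, the light chain without which class I does not reach the surface, measured 132.6 and 111.1 FPKM in shNC and 113.5 and 93.1 in shNAT10. Those groups also overlapped, with a log2 fold change of -0.24 and an interval of -0.63 to 0.15.

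The Q, T and M regions hold the non-classical heavy chains, and they went in different directions. H2-T24 was at 2.46 and 3.20 FPKM in shNC and at 7.74 and 7.98 in shNAT10, a 2.74-fold rise (log2 1.45, SE 0.17, limma adjusted p = 0.0643). The control libraries held 63 and 83 fragments of this gene and the knockdown libraries 212 and 267. No other member rose by as much on this scale. With limma-voom H2-T24 had a log2 fold change of 1.48 and an adjusted p of 2e-05. There H2-Ab1, with 0 to 9 fragments a library, had a larger log2 fold change of 2.35. H2-T24 had no 150-base window in common with another gene of the annotation, so a read of this length matches no other annotated gene.

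H2-Q6, whose product belongs to the Qa-2 antigens, was at 22.8 and 23.0 FPKM in shNC and at 33.1 and 35.9 in shNAT10. The groups were far apart relative to their spread, at a log2 fold change of 0.59 (SE 0.09, limma adjusted p = 0.0880). Its neighbour H2-Q7, another Qa-2 gene, was at 2.85 and 3.48 FPKM in shNC and at 3.19 and 4.14 in shNAT10, which overlapped (log2 fold change 0.20, interval -0.32 to 0.72). H2-Q6 shared 5.99% of its 150-base windows with H2-Q7, so fragments from these stretches may be split between the pair.

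H2-M3, which presents N-formylated peptides of bacteria and mitochondria, was the member called lower. It measured 13.8 and 17.7 FPKM in shNC and 10.7 and 10.9 in shNAT10, with both knockdown libraries below both controls (log2 fold change -0.53, SE 0.15, limma adjusted p = 0.213). Leaving out either shNAT10 library lost the call, while its log2 fold change stayed between -0.71 and -0.35 when any single library was left out.

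The other 6 tested heavy chains were not called either. H2-T23, the Qa-1 molecule recognised by inhibitory receptors of natural killer cells, was at 13.5 and 15.2 FPKM in shNC and 14.01 and 15.6 in shNAT10 (log2 fold change 0.05, interval -0.26 to 0.35). H2-T22, a ligand of gamma-delta T cells, was at 6.36 and 9.01 FPKM against 9.47 and 10.3, and H2-Q4 was at 7.90 and 10.8 against 11.0 and 11.8. Both had non-overlapping groups with differences smaller than their spread allowed to be called (log2 0.38 and 0.30, with intervals of -0.13 to 0.89 and -0.16 to 0.76). H2-Q1 was at 2.44 and 2.27 FPKM in shNC and 1.84 and 1.71 in shNAT10, the reverse order. H2-Q2 and H2-Q10 had log2 fold changes of 0.34 and 0.49 with intervals of -0.61 to 1.29 and -0.81 to 1.80. Over the 12 tested heavy chains, 2 were called higher and 1 lower, beside 8.41% and 7.83% of all genes, with a median log2 fold change of 0.25.

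Added together, the 24 heavy chains reached 310.4 and 352.4 FPKM in shNC and 322.4 and 345.3 in shNAT10, a log2 ratio of the means of 0.01, within the spread of replicates of 0.10 (SD, log2). H2-K1 and H2-D1 made up 76.1% and 75.6% of this sum in shNC and 71.2% and 70.7% in shNAT10. The 22 remaining heavy chains summed to 74.3 and 86.0 FPKM in shNC and to 92.8 and 101.3 in shNAT10. Their group means were 80.1 and 97.1 FPKM. The called H2-Q6 (means 22.9 and 34.5) and H2-T24 (2.83 and 7.86) made up nearly all of that difference. The total of the 24 differed by less than the spread of replicates. Both the share of H2-K1 with H2-D1 and the sum of the 22 separated the groups. These sums have no test.

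**Figure D3:**
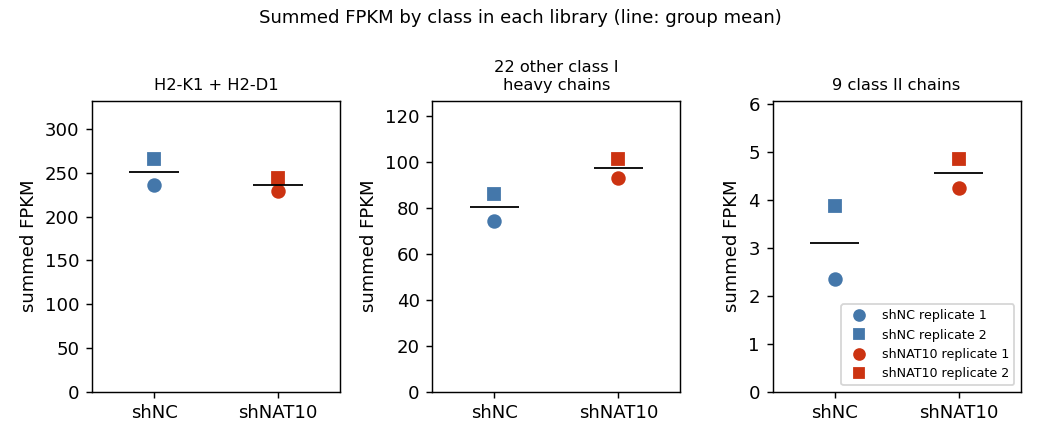
Summed FPKM in each library for H2-K1 with H2-D1, for the 22 other class I heavy chains and for the 9 class II chains, each on its own axis from 0. Points are libraries and lines the group means, which were 251.2 and 236.8 FPKM, 80.1 and 97.1 FPKM, and 3.11 and 4.56 FPKM in shNC and shNAT10.

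Psmb9, Tap1, Psmb8 and Tap2 lie next to each other within 34.3 kb of chromosome 17 (34181987 to 34216321, mm10), inside the class II region, and all 4 were called higher, beside 8.41% of all genes. Tap1 was at 4.91 and 5.14 FPKM in shNC and at 6.33 and 7.62 in shNAT10 (log2 fold change 0.46, SE 0.14, limma adjusted p = 0.232). Tap2, its partner in the transporter, was at 4.03 and 3.41 FPKM in shNC and at 6.32 and 6.38 in shNAT10 (log2 0.76, SE 0.14, limma adjusted p = 0.117). For both subunits the knockdown libraries lay above the controls. Tapbp, which bridges the transporter to the empty heavy chain and lies outside this cluster, was at 4.65 and 5.03 FPKM in shNC and at 5.05 and 4.35 in shNAT10, with a log2 fold change of -0.04 (interval -0.41 to 0.32).

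All 3 immunoproteasome subunits were called higher, beside 8.41% of all genes. Psmb8 was the most abundant, at 59.7 and 60.3 FPKM in shNC and 75.9 and 80.8 in shNAT10 (log2 fold change 0.38, SE 0.08, limma adjusted p = 0.143). Psmb9 was at 5.79 and 7.94 FPKM in shNC and at 10.1 and 10.001 in shNAT10 (log2 0.56, SE 0.18, limma adjusted p = 0.243). Psmb10, which lies on chromosome 8 outside the MHC, was at 16.9 and 12.7 FPKM in shNC and at 24.7 and 21.2 in shNAT10 (log2 0.64, SE 0.17, limma adjusted p = 0.207).

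Each of these subunits replaces a constitutive catalytic subunit, Psmb5, Psmb6 and Psmb7 in the same order, and those were not called. Their log2 fold changes were 0.07 for Psmb5, -0.02 for Psmb6 and 0.02 for Psmb7, with intervals of -0.15 to 0.29, -0.29 to 0.24 and -0.29 to 0.32. The ratio of Psmb8 to Psmb5, both per kilobase, was 0.783 and 0.811 in shNC and 0.924 and 1.06 in shNAT10. Psmb9 to Psmb6 went from 0.0856 and 0.102 to 0.140 and 0.142, and Psmb10 to Psmb7 from 0.317 and 0.269 to 0.454 and 0.447. In every pair both knockdown ratios were above both control ratios, and Psmb9 remained far below its constitutive counterpart in all libraries.

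**Figure D4:**
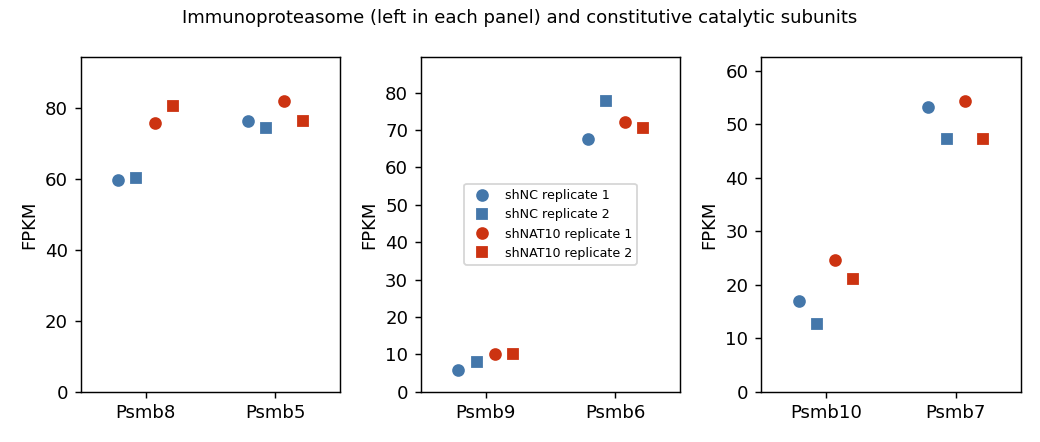
FPKM of each immunoproteasome subunit beside the constitutive subunit it replaces, in the 4 libraries, with axes from 0. The shNAT10 points (red) lie above the shNC points (blue) for Psmb8, Psmb9 and Psmb10, and the groups overlap for Psmb5, Psmb6 and Psmb7.

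Several of these genes overlap antisense genes, and their reads cannot be told apart without strand. The labels name a directional library kit, and whether the authors' counting used strand is not given in the sources used here. Psmb8 shares 14.7% of its exon bases with the antisense gene Gm20496, which itself was at 100.03 and 96.1 FPKM in shNC and 127.4 and 132.9 in shNAT10 (log2 fold change 0.41). Tap2 shares 14.1% with Gm15821, which was at 4.64 and 4.46 FPKM against 7.90 and 7.92 (log2 0.79), and another 4.36% with the more abundant Gm20496. The fold changes of the partners were close in size to those of Psmb8 and Tap2, at 0.38 and 0.76. Psmb9 and Tap1 share 212 exon bases around their common promoter, 5.79% and 3.87% of their exons, and H2-T22, H2-Q4 and Tapbp share 29.4%, 19.1% and 24.9% with antisense genes. Of the 9 members called higher, 6 were among the 21 tested members with under 10% of their exon bases in another gene. They were Psmb9, Tap1, Psmb10, Nlrc5, H2-Q6 and H2-T24. Over all genes tested, overlapping genes included, 8.41% were called higher.

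Of the transactivators, Nlrc5 on chromosome 8 was at 1.97 and 1.57 FPKM in shNC and at 2.59 and 3.02 in shNAT10. The groups did not overlap (log2 fold change 0.64, SE 0.19, limma adjusted p = 0.235), and the libraries held 197 and 158 fragments against 276 and 393. Ciita was close to the floor of detection, with 11 and 5 fragments in shNC and 11 and 27 in shNAT10 (log2 fold change 0.45, interval -1.28 to 2.18). This interval covers a fall as well as a rise, so the direction of a difference in Ciita is not settled.

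Class II was low throughout. The 9 class II chains summed to 2.35 and 3.88 FPKM in shNC and 4.26 and 4.86 in shNAT10, so that the class I sum exceeded the class II sum 132.3-fold and 90.9-fold in shNC and 75.7-fold and 71.0-fold in shNAT10. The log2 ratio of the class II means was 0.55 at a spread of replicates of 0.37 (SD, log2), and it became 0.23 without shNC replicate 1 and 0.96 without shNC replicate 2. Across all 9 genes there were 53 and 100 fragments in the control libraries and 97 and 128 in the knockdown libraries, whereas the class I heavy chains had 9647 to 14058.

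H2-Oa made the largest single contribution to the class II sum in each of the 4 libraries. Its group mean rose from 1.61 FPKM in shNC to 3.12 in shNAT10, and that of the class II sum from 3.11 to 4.56. The rise of the sum was thus no larger than that of H2-Oa alone. The product of H2-Oa is the alpha chain of H2-O, a modulator of peptide exchange by H2-DM. H2-Oa was at 1.43 and 1.79 FPKM in shNC and 2.97 and 3.28 in shNAT10. The groups did not overlap at 24 and 30 against 52 and 71 fragments (log2 fold change 0.92, SE 0.19, limma adjusted p = 0.133, limma-voom adjusted p = 0.0925). H2-Oa shares 22.8% of its exon bases with the antisense gene BC051537, which was at 0.459 and 0.253 FPKM in shNC and 0.955 and 1.29 in shNAT10, also called higher. H2-Ob, the beta chain that pairs with H2-Oa, had 3 fragments in shNC replicate 2 and 0 in the other libraries.

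The presenting class II chains themselves were barely detected, and none was called. H2-Ab1 had 0 and 3 fragments in shNC and 6 and 9 in shNAT10, H2-Eb1 had 3 and 5 against 0 and 7, and H2-Aa had 4 fragments in shNC replicate 2 and 0 elsewhere. The peptide exchange genes H2-DMa, H2-DMb1 and H2-DMb2 had between 2 and 44 fragments a library, and none was called. H2-DMa shares 10.4% of its exon bases with Brd2, a far more abundant gene at 28.3 to 37.7 FPKM. The invariant chain Cd74, abundant in antigen-presenting cells, was at 0.845 and 2.03 FPKM in shNC and at 0.735 and 0.925 in shNAT10, with 15 to 40 fragments a library (log2 fold change -0.62, interval -1.80 to 0.57).

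The 16 members under the filter were 12 heavy chains, the class II chains H2-Aa, H2-Ob and H2-Eb2, and H2-Ke6, and no library held more than 5 fragments of any of them. Of these, 8 were at 0 in every library, namely H2-T3, H2-M1, H2-M2, H2-M9, H2-M10.3, H2-M10.4, H2-M10.5 and H2-M11. A count of 0 allows up to 3 fragments in a library, counting error only. H2-M10.1, H2-M10.2, H2-M10.6 and H2-M5, also of the M region, had at most 4 fragments in a library.

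Outside the members, 53 further genes of the pathway were read from a list, of which 51 were tested, 8 were called higher and 7 lower, beside shares of 8.41% and 7.83% over all genes. Among 11 class I pathway genes, Psme2, a subunit of the interferon-inducible proteasome activator, was the gene called higher, at 15.7 and 17.5 FPKM in shNC and 23.4 and 20.2 in shNAT10 (log2 fold change 0.39, limma adjusted p = 0.241). Calr and Pdia3, a chaperone and a thiol oxidoreductase of the peptide loading complex, were called lower. Calr fell from 90.4 and 75.7 FPKM to 43.3 and 41.0 (log2 -0.97, limma adjusted p = 0.0692), and Pdia3 from 101.6 and 130.2 to 82.7 and 76.2 (log2 -0.53, limma adjusted p = 0.207). The transporter genes and these 2 genes of the same loading complex thus moved in opposite directions. Tapbp of that complex was not called (log2 fold change -0.04), and the difference between these genes was not tested.

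Of the 22 regulators, 21 were tested, 3 were called higher and 2 lower, beside 8.41% and 7.83% of all genes, and the values of single genes follow as a description. Irf1, a factor that activates class I, Psmb9 and Tap1 promoters, rose from 4.07 and 4.77 FPKM to 7.71 and 7.51 (log2 fold change 0.78, limma adjusted p = 0.106). Irf9 also rose, from 3.399 and 3.17 FPKM to 4.60 and 4.07 (log2 0.39, limma adjusted p = 0.279). Jak2, a kinase of the interferon gamma receptor, and Socs1, an inhibitor of that pathway, were called lower, with log2 fold changes of -0.34 and -0.40. The X and Y box binding genes Rfx5, Rfxap, Rfxank, Nfya, Nfyb, Nfyc and Creb1 were not called, and their log2 fold changes lay between -0.10 and 0.07.

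Beside 8.41% of all genes called higher, 2 of the 7 tested class II pathway genes and 2 of the 7 class I like genes were. Of the class II pathway genes, the cathepsin genes Ctsl and Ctsb rose, Ctsl from 38.1 and 45.9 FPKM to 69.1 and 78.0 (log2 fold change 0.81, limma adjusted p = 0.0991). Of the class I like genes, Fcgrt, the neonatal Fc receptor, and Ulbp1, a ligand of NKG2D, rose, with log2 fold changes of 1.34 and 0.85. Of 5 costimulation genes, Cd86, Cd274 and Icosl were called lower and none higher, beside 7.83% and 8.41% of all genes. Cd80, which was not called, was at 2.60 and 1.14 FPKM in shNC and 3.70 and 2.53 in shNAT10 (log2 fold change 0.79, interval -0.36 to 1.94). Cd274, the inhibitory ligand PD-L1, and Icosl had log2 fold changes of -0.49 and -0.68. Cd86, a ligand of CD28, went from 6.37 and 7.48 FPKM in shNC to 4.22 and 4.53 in shNAT10, a log2 fold change of -0.65 (limma adjusted p = 0.141).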

How the data were processed

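RNA-seq libraries of the shNC group were compared with those of the shNAT10 group, as taken from the sample titles. The methods describe rRNA-depleted libraries, paired reads and HISAT2 alignment, while the labels describe isolation of mRNA and a directional kit. The submitters' processing notes list cutadapt, HISAT2, DESeq2 and the build mm10, and the counter, the annotation and the use of strand are not given in the sources used here. The authors deposited FPKM for 53465 genes per library. A second deposited table holds the authors' own log2 fold changes and p-values for 13023 genes and was not used. Per-sample columns left out numbered 0.

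Members and lists were chosen with earlier results of these data known. Every member with a mean FPKM of at least 0.1 was named, the others by count and symbol. Pathway genes that were called and are described by role, and the constitutive subunits, were named from their list. Cd80 and the X and Y box binding genes were chosen for naming once their values were known. All pathway genes were matched, 2 of them by gene ID because their symbols are stored as dates. log2(FPKM + 0.1) was fitted over 20116 genes with limma 3.58.1 in R 4.3.3 (lmFit, eBayes with trend, two-sided, Benjamini-Hochberg adjustment), which was tested on simulated data. This scale understates changes of low genes. Fragments were recovered with GENCODE M21 exon lengths (99.8% of genes matched), and 96.0% to 96.6% of values under 50 fragments came out whole within 0.02. The deposited FPKM were already on a common median ratio. Windows of 150 bases shared between GENCODE transcripts, exon overlaps and promoter motifs were counted with Python 3.11. Alternatives were other pseudocounts, filters, scalings, variance priors, a replicate block, each library left out, limma-voom and, added after seeing the data, members without overlapping genes. The values of 1 pathway gene are not reported here.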

Additional observations from a re-analysis of the deposited data

How the results depend on the processing

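The 9 higher calls and the lower call of H2-M3 were made again, for the same genes, with pseudocounts of 1 and 0.01 and without the filter. The same held with a mean of at least 1 FPKM and under each scaling that changed the values. Median-ratio rescaling left the values as they were, so it repeats the main fit and tests nothing. In limma without the trend, 5 members were called higher and 0 lower, beside 7.64% and 6.04% of all genes, losing Psmb8, Psmb9, Psmb10, Tap1 and H2-M3. With the replicate block, 9 members were called higher and 1 lower, beside 7.89% and 7.59% of all genes. Same-numbered libraries deviated from their group means with a correlation of 0.01, so the numbers were not taken as pairs. With limma-voom, 11 were called higher, beside 10.1% of all genes, H2-Ab1 and H2-T22 in addition. Leaving out 1 library gave 3 to 9 higher calls and 0 to 2 lower calls. The lower calls were 0 without shNAT10 replicate 1, Cd74 with H2-M3 without shNC replicate 1, and H2-Eb1 alone without shNAT10 replicate 2. H2-Ab1, H2-Q4 and H2-T22 were called higher without shNC replicate 2, and H2-DMb2 without shNAT10 replicate 1. In each of these fits a group has 1 library, so no conclusion is drawn from their number of lower calls. Adjusted p over all alternatives ranged from 2e-05 to 0.471 for H2-T24 and from 0.00215 to 0.349 for H2-Q6.

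The class I log2 ratio ranged from -0.08 to 0.11 and the class II log2 ratio from 0.23 to 0.96 when 1 library was left out. Of 413 values of single members under the alternatives, the median-ratio repeats included, 11 changed sign. They lay in 7 members with log2 fold changes that the spread did not separate from 0. Without 1 library, Tapbp ranged from -0.15 to 0.061, H2-K1 from -0.071 to 0.16, H2-T23 from -0.043 to 0.13, H2-Q2 from -0.016 to 0.70, H2-DMa from -0.96 to 0.10, H2-DMb1 from -0.47 to 0.40 and H2-Eb1 from -1.47 to 0.21. H2-DMb1 was at 0.11 with limma-voom. The cause was not tested. Few fragments stand behind the values of the class II chains and Ciita, and the part of depth was not tested.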
